A study of Arabidopsis thaliana with 12 samples.

Results

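AT1G22890 and AT1G65500 are Arabidopsis thaliana genes grouped as small secreted peptide genes. They were chosen by locus code, with their rise after elicitors already known from these arrays, and they are 2 of the 13286 genes measured through a probe set with 1 gene. Each has 1 probe set, and both lie on chromosome 1. Protein sequences were not used here, so the secreted peptide label could not be checked against them.

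The arrays are Affymetrix ATH1 chips, which report each transcript as the brightness of a probe set, given here as log2 intensity. They hold root RNA of 7-day-old Col-0 seedlings, the common wild-type line, grown on a nylon mesh that kept roots and shoots apart. The roots were taken 3 h after transfer to chitin, cellobiose, oligogalacturonides (OGs) or no elicitor, with 3 biological replicates and 1 array each per group. Chitin is a building material of fungal walls, whereas cellobiose is released from cellulose and OGs from pectin, both polymers of the plant's own wall. No source used here states the doses, so differences between elicitors hold only for the amounts applied.

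Small secreted peptides carry signals between plant cells. Many are made as longer precursors, sent out of the cell by a signal peptide, trimmed by proteases such as subtilases, and bound by receptor kinases with leucine-rich repeats at the cell surface. Several families are switched on by microbial patterns or wounding and act back on immunity, and such peptides are often called phytocytokines.

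Of 5 root hair markers 2 were measured, the expansin genes EXPA7 and EXPA18, at log2 8.84 to 9.73 on the 12 arrays. EXPA18 was lower than the control by similar amounts after chitin, cellobiose and OGs (-0.38, -0.39 and -0.43). Of these limma called only the first (adjusted p = 0.0467, 0.0988 and 0.0691). None of the endodermis and stele markers chosen could be read through a probe set with 1 gene. Of 6 green tissue markers 1 was measured, RCA (Rubisco activase), at 10.61 to 11.42 on the control arrays and 8.58 to 10.45 on the elicitor arrays, so its level moved opposite to the peptide genes (log2 -1.75, -1.33 and -1.25 after chitin, cellobiose and OGs, of which limma called the first). Its part in their changes was not tested. In whole roots, a change in the number of cells of a type cannot be told apart from a change in RNA per cell. OGs replicate 3 stood apart in a check of RNA ends, where the GAPDH control probe set at the 3′ end exceeded that at the 5′ end by log2 1.46, against 0.36 to 0.86 on the other 11 arrays, and the OGs results of both members are given with and without it.

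AT1G22890 was high after OGs and chitin and low after cellobiose. On the control arrays it read log2 5.59, 5.38 and 5.11 in replicates 1, 2 and 3, and on the cellobiose arrays 5.88, 5.67 and 6.37. On the chitin arrays it read 7.39, 7.12 and 7.79, and on the OGs arrays 7.50, 7.64 and 7.36. The chitin and OGs arrays overlapped, and each of them lay above every cellobiose array. With 3 arrays a group such separation is no test, and its share over all probe sets is not given here. The cellobiose arrays sat just above the controls, the lowest at 5.67 and the highest control at 5.59.

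Group means of AT1G22890 rose in the order control, 5.36 ± 0.24, cellobiose, 5.97 ± 0.36, chitin, 7.43 ± 0.34, and OGs, 7.50 ± 0.14 (SD, n = 3). Relative to the control it was 4.41-fold higher after OGs (log2 2.14 ± 0.20 SE), 4.20-fold after chitin (2.07) and 1.53-fold after cellobiose (0.61). Without control replicate 3 the cellobiose difference was 0.39 and without cellobiose replicate 3 it was 0.41. These differences from the control chose the gene, so they carry no test. The share of all probe sets with 3 elicitor arrays above all 3 controls was 9.24 percent for OGs, 10.7 percent for chitin and 12.3 percent for cellobiose.

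AT1G65500 had its highest mean after cellobiose, although limma called neither difference between cellobiose and another elicitor. Its control arrays read log2 4.73, 4.83 and 4.84, close to background. It read 6.62, 7.31 and 7.42 in cellobiose replicates 1, 2 and 3, 6.41, 6.62 and 6.23 in the chitin replicates, and 6.53, 6.15 and 5.47 in the OGs replicates. All 9 elicitor arrays lay above the 3 controls, and the chitin and OGs arrays overlapped. The lowest cellobiose array and the highest chitin array both read 6.62, so these neighbours in the order touch.

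The order of group means for AT1G65500 was control, 4.80 ± 0.06, OGs, 6.05 ± 0.54, chitin, 6.42 ± 0.19, and cellobiose, 7.12 ± 0.43 (SD, n = 3). Because the control mean lies under log2 5, it was raised to 5, and sizes are lower bounds: at least 4.35-fold higher after cellobiose, 2.68-fold after chitin and 2.07-fold after OGs. The fitted log2 differences were 2.32, 1.62 and 1.25, each ± 0.25 (SE). Without OGs replicate 3, the array with the aberrant RNA ends and the lowest elicitor value of this gene, the fitted OGs difference was 1.57.

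**Figure D1:**
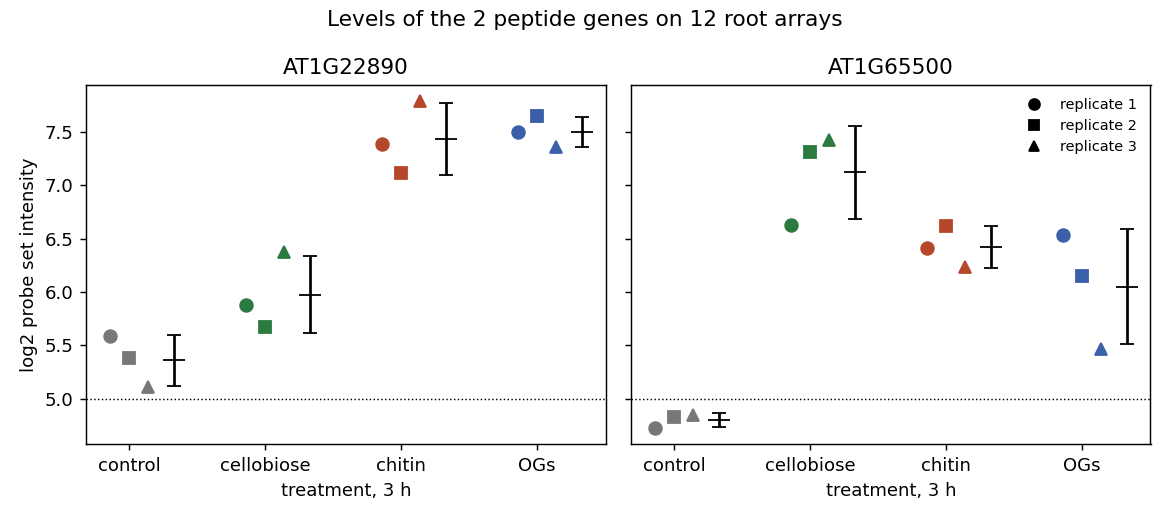
Log2 probe set intensity of AT1G22890 (left) and AT1G65500 (right) on each of the 12 arrays, by treatment; symbols mark the replicate number, black bars the mean ± SD of 3 arrays, and the dotted line log2 5. AT1G22890 is highest on the chitin and OGs arrays (7.12 to 7.79), AT1G65500 on the cellobiose arrays (6.62 to 7.42).

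Comparisons between elicitors, which the choice of the genes did not use although they share its arrays, asked whether the fragments differ in the level they give. AT1G22890 was 2.88-fold higher after OGs than after cellobiose (log2 1.53 ± 0.20 SE, 95 percent interval 1.09 to 1.97, limma adjusted p = 0.00280), and it was higher in all 3 replicate-number pairs, by 1.62, 1.97 and 0.99. After chitin it was 2.75-fold higher than after cellobiose (1.46 ± 0.20 SE, adjusted p = 0.00154), with the pairs at 1.51, 1.45 and 1.41. Of all 22746 probe sets, 0.567 percent were called higher after OGs than cellobiose and 2.93 percent higher after chitin than cellobiose. Both calls were kept with each array of the groups left out in turn. Without OGs replicate 3, AT1G22890 stood 2.29 above the control after OGs and 1.68 above cellobiose (limma adjusted p = 0.00825).

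OGs and chitin gave AT1G22890 levels that no test separated. The difference, OGs minus chitin, was 0.07 ± 0.20 (SE), with an interval of -0.37 to 0.51 that leaves room for a modest difference either way (limma adjusted p = 0.918), and 3.57 percent of all probe sets were called. One replicate-number pair went the other way, at -0.43, against 0.11 and 0.53. Without OGs replicate 3 the fitted difference was 0.22 (adjusted p = 0.728).

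For AT1G65500 the differences between elicitors pointed the other way and did not pass the threshold of an adjusted p under 0.05. After OGs it was lower than after cellobiose by a log2 change of -1.07 ± 0.25 (SE, interval -1.62 to -0.52, limma adjusted p = 0.0786), where 0.747 percent of all probe sets were called lower. The replicate-number pairs stood at -0.09, -1.16 and -1.96. Without OGs replicate 3 the difference shrank to -0.75 (adjusted p = 0.316), while without OGs replicate 1 it was -1.41 (adjusted p = 0.0159) and without cellobiose replicate 1 it was -1.38 (adjusted p = 0.0263). The result thus turned on which array was kept.

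Chitin also left AT1G65500 below the cellobiose level, by -0.70 ± 0.25 (SE, interval -1.25 to -0.14, limma adjusted p = 0.154, with 2.51 percent of all probe sets called lower), with pairs at -0.21, -0.69 and -1.19. The same comparison was called without cellobiose replicate 1 (-1.01, adjusted p = 0.0426), and it fell to -0.42 without cellobiose replicate 3 (adjusted p = 0.523). Between OGs and chitin the difference was -0.37 (interval -0.93 to 0.18, adjusted p = 0.544), or -0.05 without OGs replicate 3.

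Side by side, the shift from cellobiose to OGs was larger for AT1G22890 than for AT1G65500 by 1.71, 3.13 and 2.94 on the log2 scale in replicates 1, 2 and 3. From cellobiose to chitin the gap between the genes was 1.72, 2.14 and 2.60. The cellobiose arrays are shared by both shifts, and the gap between the genes was not tested.

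**Figure D2:**
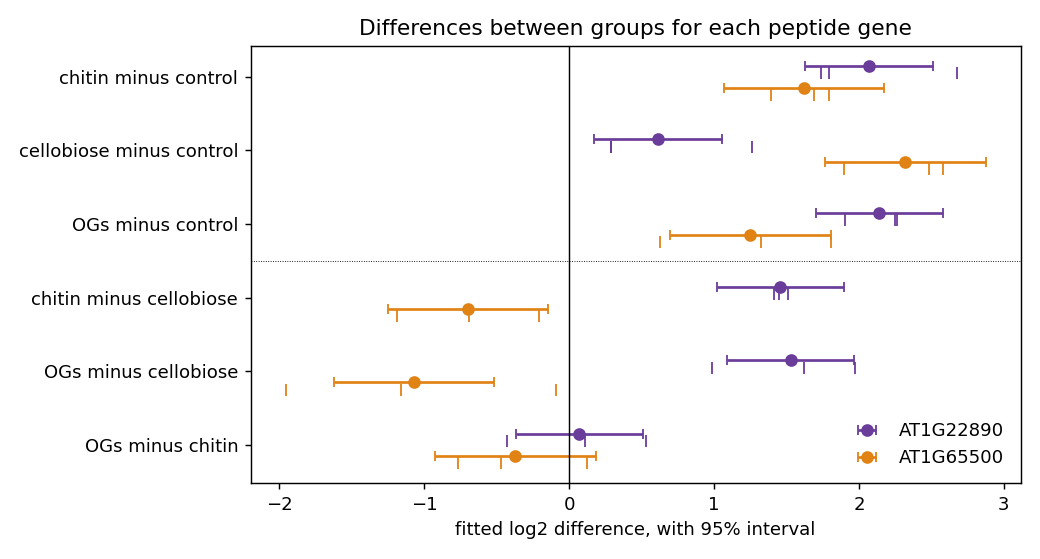
Fitted log2 difference between groups (dots) with its 95 percent interval (bars) for AT1G22890 (purple) and AT1G65500 (orange) in 6 comparisons; short vertical ticks under each bar are the differences in the 3 replicate-number pairs. Against cellobiose, AT1G22890 lies to the right of 0 (1.46 and 1.53) and AT1G65500 to the left (-0.70 and -1.07).

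Genes beside the members on chromosome 1 were read to see whether the changes extended along it. Of the 10 nearest annotated genes, 5 on either side, 6 were measured around AT1G22890 and 2 around AT1G65500. Against the control limma called 1 of these 8 higher and 1 lower after chitin, where 5.09 and 5.94 percent of all probe sets were called. After OGs 1 was called higher, against 1.61 percent of all probe sets. None was called after cellobiose, against 2.27 percent of all probe sets. An unadjusted limma p under 0.05 was reached by 4 of the 8 after each elicitor, cellobiose included, each time in both directions. After chitin, AT1G22900 and AT1G65510 rose while AT1G22930 (-0.26) and AT1G65490 (-0.47, under log2 5) fell. The share of all probe sets at that unadjusted level is not given here, so these counts say nothing about spread along the chromosome.

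AT1G22900, the next gene after AT1G22890, was the one called higher. It read log2 5.13, 4.88 and 4.74 on the control arrays, 5.67, 5.54 and 5.93 after chitin, and 5.74, 5.81 and 5.44 after OGs. It rose at least 1.59-fold after chitin (limma adjusted p = 0.00930) and at least 1.54-fold after OGs (adjusted p = 0.0394). The OGs call was lost without control replicate 2 or 3 or OGs replicate 1 or 2, with an adjusted p of up to 0.168, and with values under log2 5 raised to 5 (adjusted p = 0.0770). The fitted log2 differences of AT1G22900 were 0.80 after chitin, 0.75 after OGs and 0.49 after cellobiose (limma adjusted p = 0.156 for cellobiose). With values under log2 5 raised to 5 they were 0.67, 0.62 and 0.37. The other measured neighbours of AT1G22890, including AT1G22885 on its other side, lay within -0.26 to 0.34 of the control after every elicitor, and limma called none of them.

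AT1G65510, the gene after AT1G65500, showed an order unlike that of AT1G65500. It read log2 8.52, 8.17 and 7.87 on the control arrays and 7.87, 7.40 and 8.16 after cellobiose. After chitin it read 8.78, 8.58 and 8.77, and after OGs 8.75, 8.72 and 8.83. The chitin and OGs arrays all lay above the control and cellobiose arrays, a separation whose share over all probe sets is not given here either. It was 1.94-fold higher after OGs than after cellobiose (0.96 ± 0.17 SE, limma adjusted p = 0.0206) and 1.87-fold higher after chitin than after cellobiose (0.90, adjusted p = 0.0109), while AT1G65500 stood at -1.07 and -0.70 in the same comparisons.

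These calls on AT1G65510 were not firm. The OGs call was lost without cellobiose replicate 1 or 2 or any OGs array (adjusted p of up to 0.118), and the chitin call without chitin replicate 2 or cellobiose replicate 1 or 2 (up to 0.0661). Against the control it was not called, at 0.58 after OGs, 0.53 after chitin and -0.37 after cellobiose. AT1G65490, on the other side of AT1G65500, lay under log2 5 on every array (3.87 to 4.92), so its call as lower after chitin (adjusted p = 0.0322) has no size. That call was lost without the replicate block (0.110), with only the 2 groups compared (0.0592) and without any 1 of 5 of the 6 arrays, control replicate 2 being the exception (adjusted p of up to 0.115).

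**Figure D3:**
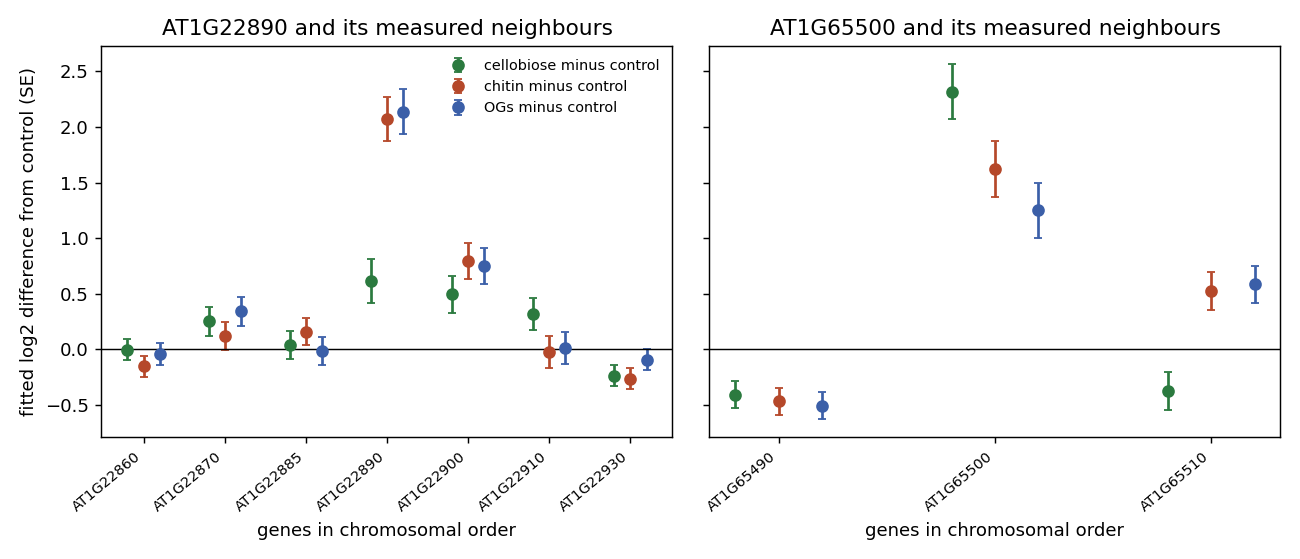
Fitted log2 difference from the control (dots, bars are SE) after cellobiose (green), chitin (red) and OGs (blue) for AT1G22890 with its 6 measured neighbours (left) and AT1G65500 with its 2 (right), in chromosomal order. The members stand above their neighbours after each elicitor, with the smallest gap after cellobiose between AT1G22890 (0.61) and AT1G22900 (0.49, or 0.37 with values under log2 5 raised to 5). The members were chosen with their rise over the control known and the neighbours by position, so this order is no test.

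The genes whose pattern was most like each member were found by the root-mean-square difference of log2 values over the 12 arrays, after centring each gene on its own mean. Nearest to AT1G22890 were AT1G68620 (0.40), ATL8 of the RING-type ubiquitin ligases (0.42), AT2G29340 (0.43), AT1G72060 (0.44) and AR781 (0.45). A gene that stayed constant would stand at 0.95, and 8 genes lay within 0.5. All 5 had higher group means after OGs and chitin than after cellobiose. ATL8, for example, went from 5.95 ± 0.24 in the control to 6.59 ± 0.42 after cellobiose, 7.42 ± 0.38 after chitin and 7.57 ± 0.11 after OGs (SD, n = 3).

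Nearest to AT1G65500 were AT3G51450 (0.45), AT2G16760 (0.49), AT4G22610 (0.49), the expansin-like EXLB1 (0.55) and the chitinase gene ChiC (0.58), where a constant gene would stand at 0.89. Only 3 genes lay within 0.5. The likeness is looser, since AT3G51450 and EXLB1 had their highest mean after chitin and the other 3 after cellobiose. AT2G16760 had the order of AT1G65500, at 6.81 ± 0.31 in the control, 7.02 ± 0.13 after OGs, 7.82 ± 0.08 after chitin and 8.22 ± 0.08 after cellobiose (SD, n = 3).

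The members themselves were far apart, at 1.05, which is farther than either is from a constant gene. These genes were picked for their likeness, so their own differences carry no test.

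**Figure D4:**
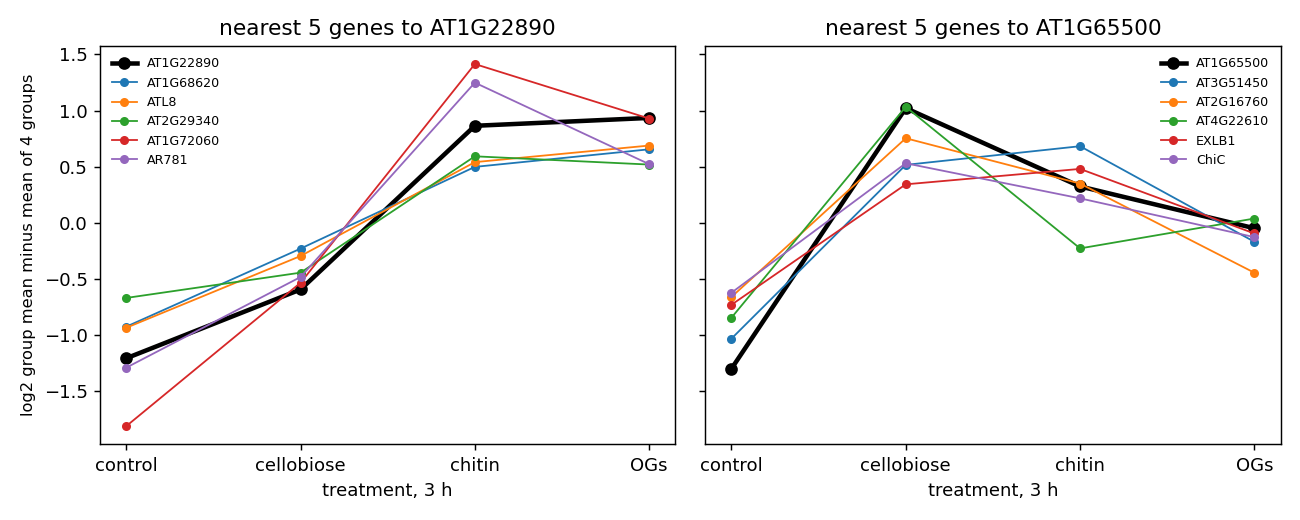
Log2 group means, each minus the gene's mean of the 4 groups, for AT1G22890 (left, black) and AT1G65500 (right, black) with the 5 genes nearest to each (coloured lines). The left set climbs from control and cellobiose to chitin and OGs; the right set peaks after cellobiose or chitin.

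Other genes linked to peptide signalling, and receptor and kinase genes more widely, were read from 3 lists. The lists were chosen with earlier results of these arrays known, so the count of calls in each is described and not tested. Adjusted p-values against the control given below for single list genes carry the same limit. The called genes were named because they were called, so these values describe them and are no separate support. Of 29 peptide precursor genes 6 were measured, and limma called 2 higher after chitin and 1 after OGs, where 5.09 and 1.61 percent of all probe sets were called higher. None was called after cellobiose, where 1.54 percent of all probe sets were called higher. An unadjusted limma p under 0.05 was reached by 4, 2 and 2 members after chitin, OGs and cellobiose. These counts mix directions, since each includes a fall of RALFL34 (-0.34, -0.36 and -0.24). The share of all probe sets at that unadjusted level is not given here. The list's median log2 difference was 0.63 after chitin, 0.13 after OGs and -0.10 after cellobiose, beside -0.03, -0.01 and -0.00 over all probe sets.

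AT4G28460, listed as the precursor of a secreted immune peptide, read log2 5.11, 4.91 and 4.98 on the control arrays and 7.64, 8.18 and 7.06 after chitin. It read 5.29, 5.44 and 5.36 after OGs and 4.72, 4.89 and 4.83 after cellobiose, so only chitin took it far from the control. It was 6.18-fold higher than the control after chitin (2.63 ± 0.19 SE, limma adjusted p = 9.09e-06), or 6.02-fold with values under log2 5 raised to 5. OGs minus chitin was -2.26 (limma adjusted p = 8.79e-05), beside the 0.07 of AT1G22890 in that comparison.

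AT3G10930, listed with the relatives of the abscission peptide IDA, was also higher after chitin and OGs than in the control. It rose by 1.13 ± 0.12 (SE) after chitin and 0.97 after OGs (limma adjusted p = 0.000123 and 0.00224), and stood at 0.46 after cellobiose. RALFL33 and RALFL34, precursors of alkalinizing peptides, lay within -0.36 to 0.17 of the control and were not called. AT4G37290, listed with the same peptide family as AT4G28460, had a control mean of 4.38, under log2 5, and missed the threshold after chitin (limma adjusted p = 0.0677). Its fitted difference of 1.08 became 0.64 with values under 5 raised to 5, and the replicate-number pairs stood at 0.89, 2.11 and 0.25. AT5G44580 lay between -0.53 and -0.45 after the 3 elicitors with none called.

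Some receptor genes sense such peptides or pass their signal on, but what each listed gene senses was not checked here. Of 25 listed 7 were measured, and limma called 4 higher after chitin, 3 after OGs and 1 after cellobiose, where 5.09, 1.61 and 1.54 percent of all probe sets were called higher. This list too was chosen with earlier results of these arrays known, so its share of calls is no test of the list. The median log2 difference was 0.45, 0.26 and 0.09, beside -0.03, -0.01 and -0.00 over all probe sets.

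AT4G08850, listed as a leucine-rich repeat receptor kinase for secreted plant peptides, was brighter than the control on every chitin and OGs array. It read log2 9.49, 9.27 and 9.60 on the control arrays and 9.60, 9.51 and 9.57 after cellobiose. After chitin it read 10.80, 10.58 and 10.73, and after OGs 10.48, 10.28 and 10.18. It rose 2.38-fold after chitin and 1.81-fold after OGs (limma adjusted p = 9.91e-06 and 0.00108), and it stood at 0.10 ± 0.09 (SE) after cellobiose (adjusted p = 0.635). OGs exceeded cellobiose by 0.76 (adjusted p = 0.00172) and chitin exceeded it by 1.15 (adjusted p = 3.55e-05), as AT1G22890 did by 1.53 and 1.46.

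AT5G25930, listed with the same receptor class, rose by 1.58 ± 0.12 (SE) after chitin and 0.94 after OGs (limma adjusted p = 1.15e-05 and 0.00309), and stood at 0.48 after cellobiose. AT1G56145, another of the receptor kinases listed, rose after all 3 elicitors, by 0.80, 0.59 and 0.44 after chitin, OGs and cellobiose. Its cellobiose call was lost without control replicate 1 or 2 or cellobiose replicate 1 or 3 (adjusted p of up to 0.187), and its OGs call without OGs replicate 2 (0.0565). BIK1, a kinase that works under immune receptors, rose by 0.45 after chitin. Its call was kept with each array left out but lost under 1 of 7 other settings of the analysis (limma adjusted p = 0.0942). FER and PSY1R, receptors of other peptide ligands, were not called and lay within -0.22 to 0.04. EFR, another receptor gene, had means under log2 5 in all 4 groups, so its probe set gives no reading of a change.

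Of 14 peptide processing genes, mostly subtilases, 11 were measured. Limma called 3 higher and 1 lower after chitin, where 5.09 and 5.94 percent of all probe sets were called, and 1 of the 3 higher, SBT3.3, was too dim to give a size. It called 1 higher after OGs and 1 after cellobiose, against 1.61 and 1.54 percent of all probe sets. The median log2 difference was 0.03, 0.11 and -0.01, beside -0.03, -0.01 and -0.00 over all probe sets. SBT3.5, a subtilase gene, read log2 6.28, 6.13 and 6.06 on the control arrays and 6.48 to 6.99 on the elicitor arrays without overlap. It rose by 0.75 after chitin, 0.60 after OGs and 0.42 after cellobiose (limma adjusted p = 0.000324, 0.00656 and 0.0375). The cellobiose call was lost with any control or cellobiose array left out (adjusted p of up to 0.195).

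AT3G14067, listed as a subtilase, fell by 0.76 ± 0.15 (SE) after chitin (limma adjusted p = 0.00819). That call was kept with each array left out but lost under 1 of 7 other settings of the analysis (adjusted p = 0.0799). SBT4.12 rose by 0.32 after chitin, a call lost without control replicate 2 or 3 or any chitin array (adjusted p of up to 0.0806). SBT3.3 was called after chitin but both group means lay under log2 5, so its change has no size. S1P, ARA12, SBT1.3 and ATSBT5.2 were not called after any elicitor. SBT4.13, AT4G10540 and AT4G10510 were not called either, but their means lay under log2 5 in all 4 groups. Without OGs replicate 3 the calls after OGs against the control on AT3G10930, AT4G08850, AT5G25930, AT1G56145 and SBT3.5 were kept (adjusted p of up to 0.0232), at 0.93, 0.96, 1.07, 0.64 and 0.64.

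**Figure D5:**
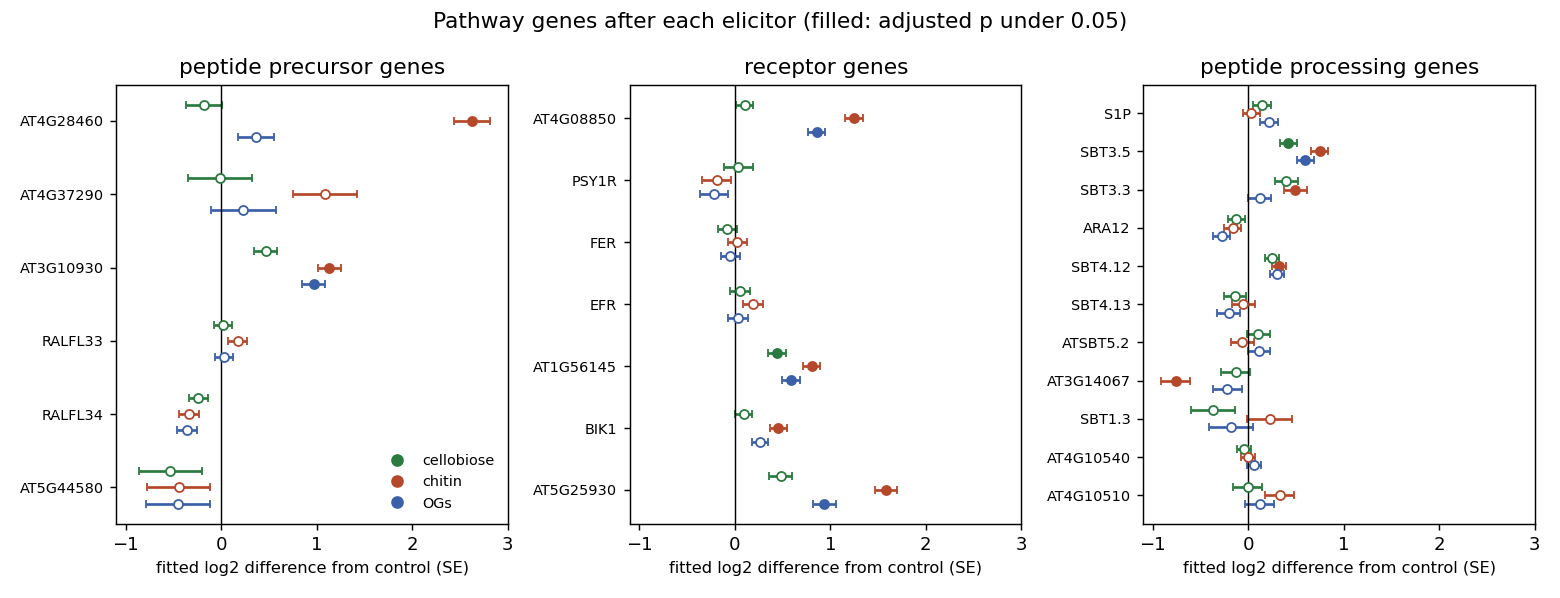
Fitted log2 difference from the control (dots, bars are SE) after cellobiose (green), chitin (red) and OGs (blue) for the measured peptide precursor, receptor and peptide processing genes; filled dots passed an adjusted p under 0.05. AT4G28460 stands out after chitin alone (2.63), while AT4G08850 and AT5G25930 are filled after chitin and OGs.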

How the data were processed

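The authors deposited log2 probe set intensities, normalized between arrays. Per the series design text the GCRMA algorithm was used, and the submitters' processing notes name Affymetrix Expression Console. No source says which produced the values, and array medians lay between 6.30 and 6.41. Scaling of this kind hides a shift shared by all transcripts and compresses dim probe sets. The number of arrays limits the precision.

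All 22746 probe sets other than 64 controls entered 1 limma model (version 3.58.1 in R 4.3.3, functions lmFit and eBayes) of the 12 arrays, with a term for each of the 4 groups and a block for the replicate number, following the sample pairs of the design text (6 residual degrees of freedom). P-values were Benjamini-Hochberg adjusted per comparison over all 22746. The tests set each difference against the spread between biological replicates left after the block, pooled over the 4 groups and moderated by limma. The annotation gave 13513 probe sets exactly 1 gene, of which 13436 matched the gene table (TAIR10.1), used for names and gene order only, and the brightest stood for each of 13286 genes. The code was tested on simulated data.

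The members, gene lists and the log2 5 floor were chosen with earlier results of these data known. The genes named were the members, the 5 annotated genes on either side of each, the 5 nearest in pattern, and list genes called against the control, with uncalled ones added after their values were seen. Paralogs by protein sequence were not analysed here. Alternatives were no block, only the compared groups, quantile normalization, median centring, a trended robust prior, a filter and a floor at log2 5, and each array left out. Those for neighbour genes, for list genes between elicitors and for the nearest genes were chosen after seeing the data.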

Additional observations from a re-analysis of the deposited data

How the results depend on the processing

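Both calls on AT1G22890 against cellobiose were kept under all 7 other settings and with each array left out (1.28 to 1.66 for chitin, 1.36 to 1.73 for OGs). Its OGs minus chitin difference ran from -0.10 to 0.25 and turned sign without chitin replicate 2 (-0.06) or OGs replicate 2 (-0.10). For AT1G65500 the leave-one-out values ran from -1.01 to -0.42 for chitin minus cellobiose and from -1.41 to -0.75 for OGs minus cellobiose, with calls as given above, and no other setting called either. Raising values under log2 5 to 5 moved chitin minus control of AT1G65500 to 1.42, since its controls lie below 5.

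Same-numbered arrays of different groups deviated together little more than arrays of different numbers. The same-numbered pairs correlated at -0.23 to 0.25 (median 0.06), with 6 of 18 over 0.1. Pairs of different numbers correlated at -0.36 to 0.44 (median -0.02), with 11 of 36 over 0.1. Without the replicate block the adjusted p of OGs minus cellobiose was 0.00110 for AT1G22890 and 0.0505 for AT1G65500, and no call on the members changed.

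Receptor genes called after cellobiose were 1, but 2 without the block or with the trended robust prior and 0 under quantile normalization or median centring (0 to 2 with an array left out). Peptide processing genes called were 1 after cellobiose but 0 without the block, with the trended prior or with only the 2 groups compared (0 to 1 with an array left out), 1 after OGs but 2 without the block, under quantile normalization or with the trended prior, and 4 after chitin but 1 with only the 2 groups compared (2 to 3 with an array left out). Precursor genes called after cellobiose ran from 0 to 1, the latter without control replicate 3, and those called after chitin rose from 2 to 3 without the block, with the trended prior or without chitin replicate 3. The cause of these moves was not tested. Of the 5 genes nearest to each member at least 3 remained with any array left out. Low signal limits AT1G65500, AT1G22900 and AT4G28460 on the control arrays, and AT4G28460 also after cellobiose. It further limits AT4G37290 in all groups but chitin, and AT1G65490, EFR, SBT3.3, SBT4.13, AT4G10540 and AT4G10510 in all groups.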
